A study of Danio rerio with 6 samples.

Results

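*vegfaa* and *vegfab*, the zebrafish paralogues that encode the Vascular endothelial growth factor A ligands, and *flt1*, which encodes a receptor of these ligands, were compared between wild-type and *vhl* mutant embryos. Probes were taken by the accession each was designed on, which gave DQ026828 for *vegfab*, NM_131408 for *vegfaa* and NM_001014829 for *flt1*. A further *vegfaa* probe, designed on AF016244, was added because the probe tables of the study give it that symbol. The 3 genes were thus read by 4 of 41031 zebrafish probes, and they belong to 3118 genes that had a symbol here.

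The arrays measured whole embryos at 4 dpf (days post fertilisation), of a mixed TL/LWT strain, that were either wild-type or carried a *vhl* mutation, each sample being RNA of 30 pooled embryos. *vhl* encodes the von Hippel-Lindau protein, which marks the α subunit of the transcription factor HIF (Hypoxia Inducible Factor) for degradation. Mutants came from a line with the hu2117 allele that had been crossed into a *phd3*:EGFP hypoxia reporter, so the fish that gave the homozygous mutants also carried that transgene, and whether the wild-type pools carried it is not given in the sources used here. There were 3 wild-type arrays (replicates 2, 3 and 4) and 3 *vhl* mutant arrays (replicates 1, 3 and 4), all hybridised in one colour.

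The VEGF-A ligands bind receptors on endothelial cells, the cells that line blood vessels, and drive vessel sprouting. In mammals VEGFA is a textbook target of HIF, and FLT1 binds the ligand tightly while signalling weakly, with a soluble form that acts as a decoy. Most of the growth signal passes through the kinase receptors, which in zebrafish include Kdr and Kdrl.

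The primers with which the study measured *vegfab* by q-PCR in the same RNA are shown here. They belong to the gene of the one ligand probe that passed the call described below. Whether primers and probe read the same transcript is not given in the sources used here. Both are written in lower case from 5′ to 3′.
vegfab forward primer: aaaagagtgcgtgcaagacc
vegfab reverse primer: gacgtttcgtgtctctgtcg

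Each array held 43803 zebrafish spots, of which 67.2% to 72.4% were well above background, the scanner software's flag for a spot that is brighter than its surroundings. No spot was saturated. The 3 wild-type arrays lay on 1 slide and the 3 *vhl* mutant arrays on another, so slide and genotype cannot be told apart in any value below. The labels do not say that pools came from separate crosses, although the methods call them biological replicates. A probe was called when limma gave an adjusted p of 0.01 or less (Benjamini-Hochberg, over all probes) together with a 2-fold change. By that call 1322 probes (3.22%) differed, of which 687 (1.67% of all probes) were higher and 635 (1.55%) lower in *vhl* mutants. With the arrays scaled on spike-in controls instead of by quantiles, 234 probes were called higher and 3461 lower. With 3 arrays a group, precision was limited by their number. No probe had the symbol *vhl* in the names used here (0 probes), so the mutated gene could not be read.

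Both ligand transcripts were brighter in *vhl* mutants on the probes that measured them well, *vegfab* by 5.88-fold and *vegfaa* by 4.15-fold, and on neither probe did the groups overlap. Every mutant pool was above every wild-type pool on 21.4% of all probes. *vegfab* passed the call and *vegfaa* did not. A second *vegfaa* probe and the *flt1* probe lay near background in both groups. As processed here they differed little between the groups, by 0.16 and 0.15 on the log2 scale. With the processed signal of the scanner software, scaled on its 75th percentile, they differed by 1.50 and 1.28, and neither was called. Of the 4 probes, 1 was called, in the higher direction, against 3.22% of all probes called in either direction and 1.67% called higher. In RNA of whole embryos, more cells that express a gene and more RNA per cell cannot be told apart.

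**Figure D1:**
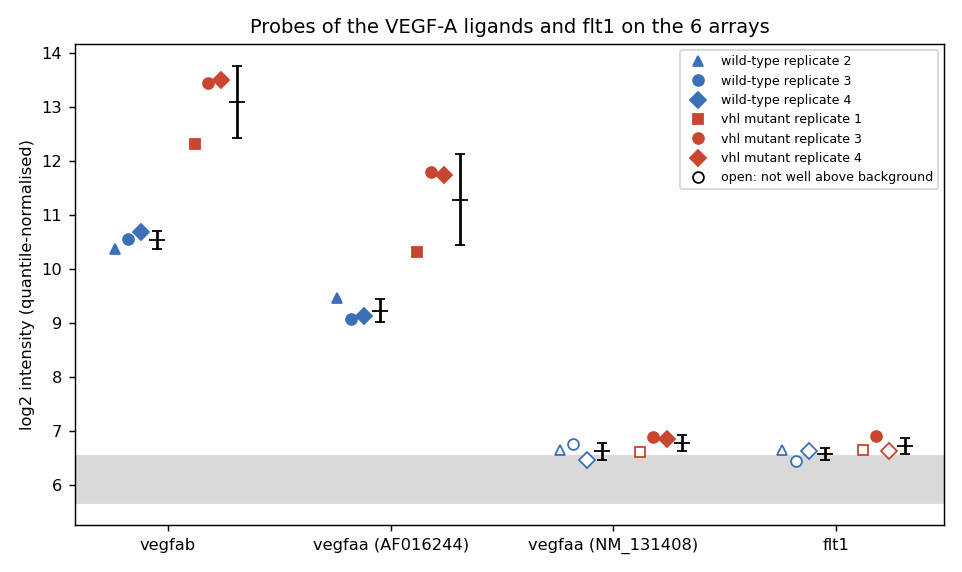
Normalised log2 intensity of each of the 4 probes on the 6 arrays, wild-type in blue and *vhl* mutant in red, with the mean ± SD of each group in black (n = 3). Open symbols were not well above background. The grey band spans, over the 6 arrays, the lowest level of any probe that counted as well above background. It is no detection limit, since open symbols lie above it. Both probes on the left separate the groups, both on the right do not.

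The *vegfab* probe read 10.37, 10.57 and 10.70 on the log2 intensity scale in wild-type replicates 2, 3 and 4. In *vhl* mutant replicates 1, 3 and 4 it read 12.33, 13.46 and 13.51. Every mutant pool was therefore above every wild-type pool, and replicate 1 was the lowest of the mutants by a wide margin. A gap of this kind is common on these arrays, where 21.4% of all probes were higher in every mutant pool than in any wild-type pool. The group means were 10.55 ± 0.16 and 13.10 ± 0.67 (SD, n = 3 each). The log2 fold change was 2.56 (SE 0.32, 95% confidence interval 1.77 to 3.34), a 5.88-fold increase (3.42 to 10.1), with an adjusted p of 0.00371 from limma. By size of increase it stood at rank 71 of the 41031 probes. Before any correction or scaling, the median brightness of the spot was 1457, 1573 and 1804 in wild-type and of 4530, 9348 and 11279 in mutants, over a local background of 18 to 26.

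The call for *vegfab* did not survive every change of the sample set. It was lost when wild-type replicate 2, 3 or 4 was left out (adjusted p = 0.0205, 0.0220 and 0.0199 from limma) and when *vhl* mutant replicate 3 or 4 was left out (0.0132 and 0.0127), while it was kept without *vhl* mutant replicate 1 (0.000246). The log2 fold change stayed between 2.34 and 2.93 in these 6 fits. Calls over all probes also became fewer in the fits that lost this call. Called higher were 194 to 327 probes without a wild-type array and 523 and 485 without *vhl* mutant replicate 3 or 4, against 687 with every array. Without *vhl* mutant replicate 1 the number was 1092. The size of the increase also depended on the scaling of the arrays. Quantile normalisation reshapes each array, whereas a single scaling factor per array only shifts it, and with such a factor on the background-corrected values the increase of *vegfab* over the median of all probes was 1.73 in place of 2.56 on the log2 scale. Such a factor shifts the probe and the median alike, so that value is by construction the same for every factor, and only the call can differ. The call was kept with scaling on spike-in controls (adjusted p = 0.000521 from limma). It was lost with scaling on the 75th percentile after background correction (0.0490) and with no scaling at all (0.103), where 9 and 3 of all probes were called higher. With the processed signal of the scanner software, scaled on its 75th percentile, the increase over the median was 2.29. The call was then kept (adjusted p = 0.00751 from limma).

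The *vegfaa* probe on AF016244, present as 2 spots per array, read 9.48, 9.09 and 9.13 in wild-type replicates 2, 3 and 4. It read 10.32, 11.80 and 11.75 in *vhl* mutant replicates 1, 3 and 4. The groups again did not overlap, as on 21.4% of all probes in that direction. Again replicate 1 was the lowest mutant, this time closer to wild-type than to the other mutants. The means were 9.23 ± 0.22 and 11.29 ± 0.84 (SD, n = 3 each), and the log2 fold change was 2.05 (SE 0.41, 95% confidence interval 1.07 to 3.04). This 4.15-fold difference (2.10 to 8.20) had an adjusted p of 0.0152 from limma and so missed the limit of 0.01, although it passes an adjusted p of 0.05, which 11.7% of all probes passed in that direction. Without *vhl* mutant replicate 1 the log2 fold change was 2.53 with an adjusted p of 0.000421, and the probe passed the call. With 1 scaling factor per array on the background-corrected values, the log2 difference over the median of all probes was 1.3 in place of 2.05, and with the processed signal it was 1.88.

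The 2 spots of that probe gave nearly the same reading. They differed by 0.02 to 0.12 on the log2 scale within an array. The 1892 probes with 2 spots that were measured on all arrays, this one included, had median differences of 0.12 to 0.20. The low reading in *vhl* mutant replicate 1 was present in both spots, at 10.33 and 10.30, and so was not a fault of 1 spot.

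The second *vegfaa* probe, designed on NM_131408, gave another picture of the same gene. It read 6.66, 6.76 and 6.47 in wild-type and 6.62, 6.89 and 6.86 in *vhl* mutants. The groups overlapped, and the probe was well above background on 0 of 3 wild-type arrays and on 2 of 3 mutant arrays. The log2 fold change was 0.16 (SE 0.11, 95% confidence interval -0.11 to 0.43; adjusted p = 0.350 from limma). No fold is given, since the probe was not well above background on any wild-type array and the interval includes 0. Before any scaling, the spot stood 36, 44 and 28 above its local background in wild-type and 27, 48.5 and 58 in mutants. The 153 negative control spots, which match no transcript, had 95th percentiles of 23.2 to 30 by the same measure, and the spot exceeded the percentile of its own array except in wild-type replicate 4 (28 against 30).

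The difference between the *vegfaa* probes was itself examined within each array. The AF016244 probe exceeded the NM_131408 probe by 2.33 to 2.82 on the log2 scale in wild-type and by 3.70 to 4.91 in mutants, so the mean gap widened by 1.89. The exact two-sided permutation test over the 20 regroupings of 3 against 3 arrays gave p = 0.1, the smallest this design allows, and therefore cannot pass 0.05 (adjusted over 4 such differences, 0.1). The size of this widening depended on the scaling. It was 0.998 (exact p = 0.2) with the 75th percentile after background correction, with spike-in controls and with no scaling. These settings give the same gap by construction, since a single factor per array cancels within an array. With quantiles kept, the widening was 1.94 without background correction and 1.85 with an offset of 16. With the processed signal of the scanner software scaled on its 75th percentile, which changes both background and scaling, the NM_131408 probe had a log2 fold change of 1.50 (adjusted p = 0.211 from limma) and the gap widened by 0.71 (exact p = 0.4). RefSeq lists 5 *vegfaa*, 6 *vegfab* and 3 *flt1* transcripts, and which of them each probe can bind is not given in the sources used here.

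The *flt1* probe was as dim. It read 6.66, 6.46 and 6.64 in wild-type and 6.65, 6.91 and 6.63 in *vhl* mutants. Only *vhl* mutant replicate 3 stood above the rest, and it was the 1 array of the 6 on which the probe was well above background. The log2 fold change was 0.15 (SE 0.10, 95% confidence interval -0.10 to 0.40; adjusted p = 0.351 from limma), and no fold is given. Net brightness was 36, 26.5 and 38 in wild-type and 29, 50 and 41 in mutants, above the 95th percentile of the negative controls on each array except wild-type replicate 3 (26.5 against 29). This probe was thus near the limit of detection on these arrays. A change of the receptor transcript, in either direction, was not well measurable with it. The processed signal gave *flt1* a log2 fold change of 1.28 with an adjusted p of 0.0531 from limma.

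The change of each ligand minus that of *flt1* on the same arrays was 2.41 for *vegfab* and 1.91 for *vegfaa* (AF016244) on the log2 scale (exact two-sided permutation p = 0.1 each, the smallest possible with 3 against 3 arrays). With 1 scaling factor per array on the background-corrected values these were 1.45 (exact p = 0.1) and 1.03 (exact p = 0.2). Since the *flt1* probe was not well above background on 5 of the 6 arrays, a change of *flt1* could hardly show in these differences. They are no test of the ligands against their receptor.

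The paralogues were compared directly. *vegfab* exceeded *vegfaa* (AF016244) by 0.89, 1.48 and 1.56 on the log2 intensity scale in wild-type replicates 2, 3 and 4, and by 2.01, 1.66 and 1.77 in *vhl* mutant replicates 1, 3 and 4. The level of one probe cannot be set against that of another, but the change of the gap can be read. The gap was 0.50 larger in mutants, without overlap of the groups, and the exact two-sided permutation test gave p = 0.1, the smallest it can give. Leaving out each array in turn gave 0.32 (without wild-type replicate 2, exact p = 0.2) to 0.64, and leaving out *vhl* mutant replicate 1 gave 0.40 with an exact p of 0.3. An unequal rise of the paralogues was therefore not shown with 3 arrays a group.

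**Figure D2:**
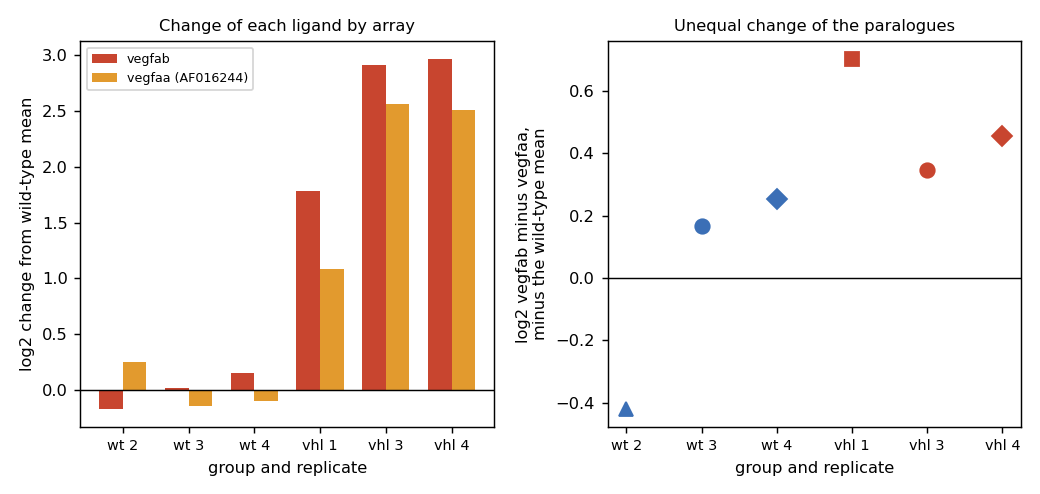
Left, log2 change of *vegfab* (red) and *vegfaa* AF016244 (orange) from their own wild-type means on each of the 6 arrays (wt, wild-type; vhl, *vhl* mutant; replicate number). Right, the within-array difference *vegfab* minus *vegfaa* relative to its wild-type mean, where the 3 mutant arrays (0.35 to 0.70) lie above the 3 wild-type arrays (-0.42 to 0.25).

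On the 2 well-measured ligand probes, the mutant pools differed more among themselves than the wild-type pools did. The SD of *vegfab* was 4.07 times and that of *vegfaa* (AF016244) 3.92 times as large in mutants as in wild-type. Each SD rests on 3 arrays, so such ratios are imprecise, and how common they are among all probes was not examined. The dim probes gave 0.999 and 1.40 times, but near background a spread between pools could hardly show. The difference of *vhl* mutant replicate 1 from the mean of replicates 3 and 4 was -1.16 for *vegfab* and -1.46 for *vegfaa* on the log2 scale. Expressed as folds over the wild-type mean, *vegfab* stood at 3.44, 7.55 and 7.83 and *vegfaa* at 2.11, 5.93 and 5.70 in replicates 1, 3 and 4. Both ligands thus stood nearest to wild-type in the same pool.

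That pool was also lower for many other transcripts that increased in the other mutant pools. Of 215 probes measured on all arrays and at least 4-fold above wild-type in replicates 3 and 4, replicate 1 was lower than the mean of these replicates for 179 (83.3%), with a median difference of -0.65. Both ligand probes are among the 215. For 62 of the 215 the difference was at least as large as for *vegfab*, and for 40 at least as large as for *vegfaa*. These probes were chosen by replicates 3 and 4, so a lower value in replicate 1 is partly built in. Over the 637 probes that were called higher and measured on all arrays, a choice that favours mutant pools that are alike, the median difference was -0.16, and 2.21% of them lay below *vegfab* and 0.315% below the value of *vegfaa*. Over all 24255 probes measured on all arrays the median was 0.01. In replicate 1 both ligands thus lay further below the other mutant pools than most probes of either set. Neither set is a neutral comparison, since both were chosen by values of the mutant pools. *vegfaa* itself missed the call that defines the 637. What set the pools apart was not tested.

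**Figure D3:**
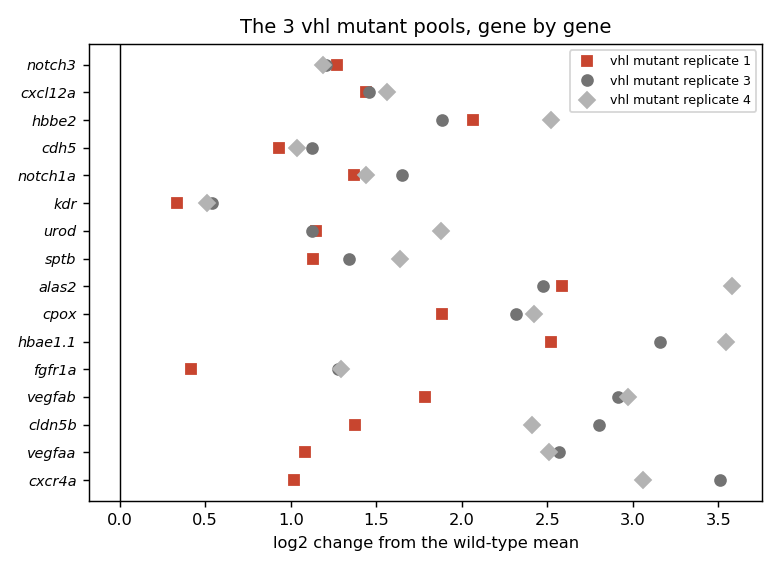
Log2 change from the wild-type mean in *vhl* mutant replicate 1 (red squares), replicate 3 (dark circles) and replicate 4 (light diamonds), for the called genes of the angiogenesis and red blood cell lists with *cldn5b*, *vegfaa*, *cxcr4a*, *fgfr1a* and *kdr*. Genes are ordered by how far replicate 1 lay below the other mutants, from *cxcr4a* (-2.26) at the bottom to *notch3* (0.07) at the top, and both ligands stand near the bottom.

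Among the other receptors and ligands of the VEGF family, *kdr* was the one with a named probe. It encodes a kinase receptor of the ligands on endothelial cells. Its probe read 7.03, 6.98 and 7.04 in wild-type and 7.35, 7.55 and 7.53 in *vhl* mutants. The groups did not overlap, as on 21.4% of all probes in that direction, and the spread within each was small. The log2 fold change was 0.46 (SE 0.08), with an adjusted p of 0.00830 from limma, so the probe passed the limit on p and missed the 2-fold limit. Unlike the *flt1* probe, it was well above background on all 6 arrays. Its readings were low all the same, where the lowest levels that counted as well above background ran from 5.67 to 6.55. That range is no detection limit. The *vegfaa* probe on NM_131408 read 6.76 in wild-type replicate 3 without being well above background.

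The wider pathway was read from a list of 93 genes of VEGF signalling and angiogenesis, chosen with results of these data known, of which 19 had a named probe and 15 were measured on all arrays. Of the 19, 5 were called higher and 0 lower, against 1.67% and 1.55% of all probes. Besides *vegfab* these were *cxcl12a*, *notch1a*, *notch3* and *cdh5*. The median log2 change over the list was 0.46, and over all probes -0.00017. Without the members it was 0.41 over 16 genes, 4 of them called higher. At an adjusted p of 0.05 with no fold limit, 12 of the 19 were higher (11.7% of all probes) and 0 lower. Some probes owe their name to the study's table of changed genes, which raises such counts. Among the 17 genes named by other means 3 were called higher, where 2.39% of 2557 such probes were.

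The count of 5 depended on single arrays, as did the number of all probes called higher, 687 with every array. The list count was 8 without *vhl* mutant replicate 1, where 1092 of all probes were called higher. It was 1 without wild-type replicate 4 (241 of all probes) and 3 without any one of the remaining arrays (194 to 523). It was 0 when the arrays were scaled on the 75th percentile after background correction or not scaled, where 9 and 3 probes in all were called higher.

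**Figure D4:**
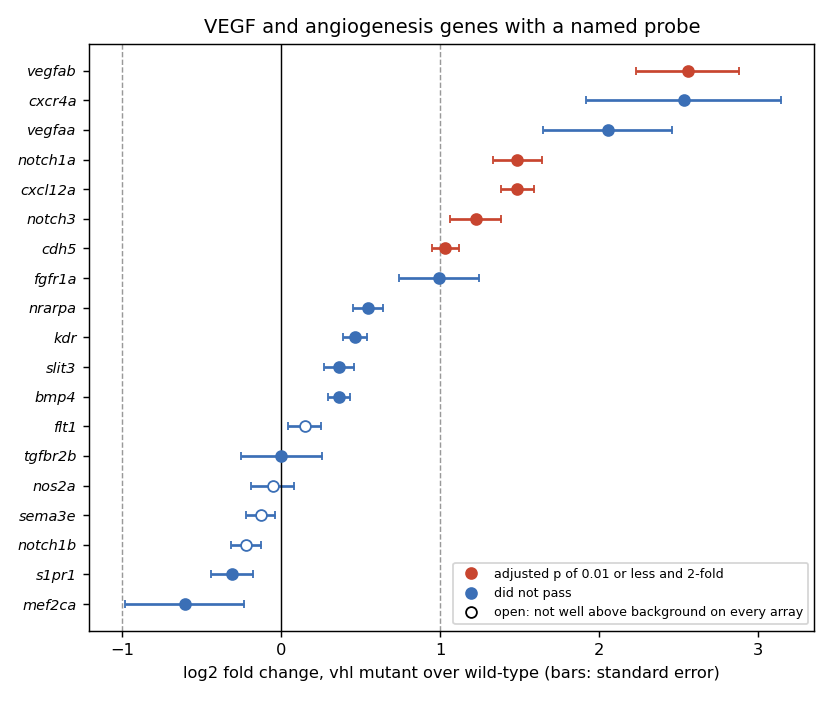
Log2 fold change, *vhl* mutant over wild-type, of the 19 genes of the VEGF and angiogenesis list that had a named probe, with the standard error as bars (n = 3 arrays a group). Red points passed the call, open points were not well above background on every array, and dashed lines mark a 2-fold change; *vegfab*, *cxcr4a* and *vegfaa* (AF016244) stand at the top.

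The chemokine *cxcl12a* and its receptor *cxcr4a* guide migrating cells, endothelial cells among them. *cxcl12a* rose by 1.48 (SE 0.10, adjusted p = 0.000939 from limma), with similar values of 12.07, 12.08 and 12.19 in the 3 mutant pools. *cxcr4a* read 9.24 to 9.41 in wild-type and 10.35, 12.83 and 12.39 in mutant replicates 1, 3 and 4. Its log2 fold change of 2.53 (SE 0.62) was close to that of *vegfab*, but the spread of the mutants left an adjusted p of 0.0300. The receptor thus had the same low replicate 1 as the VEGF-A ligands, and the chemokine did not.

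Notch receptors restrain sprouting in cells next to a tip cell and carry many other signals outside vessels. *notch1a* rose by 1.49 (adjusted p = 0.00223 from limma) and *notch3* by 1.22 (adjusted p = 0.00418). *notch1b*, not well above background on every array, gave -0.22 (adjusted p = 0.141). *nrarpa*, whose product feeds back on Notch, gave 0.55 with an adjusted p of 0.0144 over the 5 arrays on which its spot was not an outlier. *fgfr1a*, a growth factor receptor of many tissues, gave 0.99 (adjusted p = 0.0344). The remaining values of the list ran from -0.61 for *mef2ca* to 0.36 for *bmp4* and *slit3*, and none of them passed the call.

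Endothelial content was checked with markers of the cells that respond to the ligands. Of 32 such genes, 5 had a named probe, and all 5 were measured on every array. *cdh5*, the adhesion molecule of endothelial junctions, rose by 1.03 (SE 0.09, adjusted p = 0.00134 from limma). *cldn5b*, which encodes a tight junction protein, rose by 2.20 (SE 0.35, adjusted p = 0.00748). *stab2* gave 0.56 (adjusted p = 0.0126) and *fli1* 0.21 (adjusted p = 0.255). With *kdr*, 2 of the 5 were called higher (against 1.67%), and 0 of the 3 that were not named from the table of changed genes. The summed linear level of the 5 probes was 5577 to 6324 in wild-type and 11115 to 19796 in mutants, lowest in replicate 1. In mutants the sum is weighted to *cldn5b*, which read 12.22, 13.66 and 13.26 in replicates 1, 3 and 4. Replicate 1 differed from the mean of replicates 3 and 4 by -1.23 for *cldn5b* on the log2 scale. For *cdh5*, *kdr*, *fli1* and *stab2* that difference was -0.15, -0.19, -0.06 and 0.12. The part of endothelial content in the ligand values was not tested. Endothelial calls numbered 0 without wild-type replicate 3 or 4 (194 and 241 of all probes called higher, against 687 with every array). They numbered 1 without wild-type replicate 2 (327 of all probes) or mutant replicate 3 or 4 (523 and 485).

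Red blood cell genes moved the most of the marker lists. Of 29 listed genes, 6 had a named probe, and all 6 were called higher (against 1.67% of all probes), with a median log2 change of 2.18. The probes of *hbae1.1*, *hbbe2*, *sptb* and *urod* have a name here only because the study lists them as changed. Their calls are therefore largely built in. Both genes named by other means, *alas2* and *cpox*, were called higher (2 of 2), with a median log2 change of 2.54. Of all probes named by other means, 2.39% were called higher. The 6 comprised the globins *hbae1.1* (3.07) and *hbbe2* (2.16), and the haem synthesis genes *alas2* (2.88), *cpox* (2.21) and *urod* (1.38). The last was *sptb* (1.37), which encodes a spectrin of the red cell membrane. The summed level of the 6 probes was 36790 to 38331 in wild-type and 158816 to 234029 in mutants. In that sum, weighted to the brightest probe *hbbe2*, replicate 1 stood with replicate 3, and replicate 4 was the highest. By the mean log2 level of the 6 probes, replicates 1, 3 and 4 read 12.51, 12.67 and 13.22. Replicate 1 was thus the lowest by that mean, as it was for the VEGF-A ligands. By gene, the lowest mutant was replicate 1 for *hbae1.1*, *cpox* and *sptb*, and replicate 3 for *alas2*, *hbbe2* and *urod*. Calls in this list numbered 2 without wild-type replicate 2 or 3 (327 and 194 of all probes called higher, against 687 with every array). Without wild-type replicate 4 they numbered 3 (241 of all probes). The part of red blood cell content in the ligand values was not tested.

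White blood cell markers were thinly covered, with 3 of 25 genes having a named probe and 0 called. *mfap4.1*, a marker of macrophages in zebrafish, was measured on all arrays and gave 0.86 (adjusted p = 0.0747 from limma). The lymphoid genes *rag1* and *il7r* were at the edge of detection, at -0.25 (adjusted p = 0.0333 from limma) and -0.20 (adjusted p = 0.311).

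The genes whose readings across the 6 arrays were most like those of the ligands were found by Pearson's r among 2485 named probes measured on all arrays, as a description. With 6 arrays that fall into separate groups, any probe that differs between the groups has a high r, and 227 probes exceeded 0.95 with *vegfab* and 129 with *vegfaa* (AF016244). Some of the 2485 probes owe their name to the study's table of changed genes, which raises these numbers. All 5 neighbours of *vegfab* are in that table, as are *igfbp1a* and *hbba2* among those of *vegfaa*, so such likeness is partly built in. Nearest to *vegfab* were *nt5dc2* (0.998), *cyp1c1* (0.997), *si:ch1073-291c23.2* (0.997), *eef2k* (0.996) and *stc1* (0.995). *cyp1c1* encodes a cytochrome P450, *eef2k* a kinase of a translation elongation factor and *stc1* the hormone stanniocalcin. Nearest to *vegfaa* were *insig1* (0.998), *igfbp1a* (0.995), *hbba2* (0.992), *pofut2* (0.992) and *LOC100001152* (0.992). *insig1* encodes a sterol-regulated protein, *igfbp1a* a binding protein of insulin-like growth factors, *hbba2* a globin and *pofut2* a fucosyltransferase. The paralogues correlated with each other at 0.974, which placed *vegfaa* at rank 112 of 2485 for *vegfab*. The 5 neighbours of *vegfab* changed by 1.18 to 3.13 on the log2 scale and those of *vegfaa* by 0.22 to 3.18, since r takes no account of size.

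**Figure D5:**
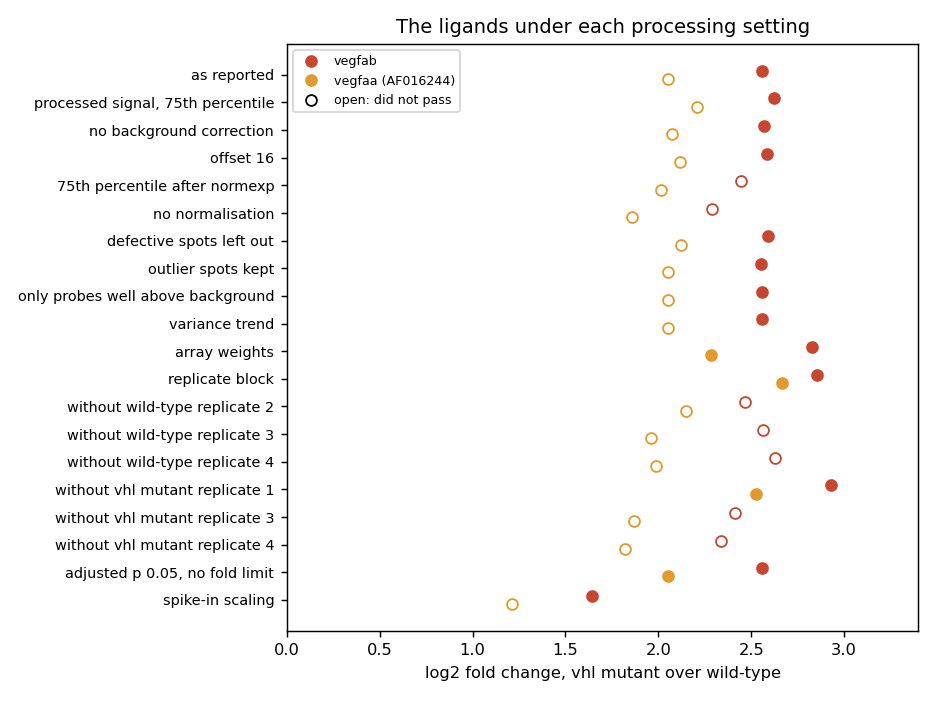
Log2 fold change of *vegfab* (red) and *vegfaa* AF016244 (orange) under each processing setting, filled where the call was passed. All points lie above 0, from 1.21 to 2.93, with the lowest pair under spike-in scaling.

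Across the processing settings drawn in that plot, both ligands kept a positive change, *vegfab* between 1.64 and 2.93 and *vegfaa* (AF016244) between 1.21 and 2.66. *vegfab* passed in 12 of 19 alternatives and *vegfaa* in 4 of 19. Both counts include the looser limit of an adjusted p of 0.05 with no fold limit, in place of the call. *vegfaa* passed that limit with the adjusted p of 0.0152 from limma that misses the call. The 4 also include the fit without *vhl* mutant replicate 1 and the replicate block, to which that array adds nothing. The lowest pair came from scaling on the spike-in controls, where *vegfab* was called (1.64, adjusted p = 0.000521 from limma) and *vegfaa* was not (1.21, adjusted p = 0.0147).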

How the data were processed

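Total RNA of 30 pooled embryos per sample (400 ng per labelling) was hybridised to one-colour Agilent arrays. Per the file headers and the labels, the deposited scanner files hold intensities for every spot (median pixel brightness, with that of the local background), read with Agilent Feature Extraction 10.7.3.1 and not normalised by the authors. The deposited series table equals the software's processed signal, with 0 columns left without a sample. The submitters' processing notes name limma 3.24.10.

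Following the methods of the study, intensities were background-corrected with normexp (offset 50, chosen here), quantile-normalised and averaged by probe, then fitted without covariates (limma 3.58.1, functions lmFit and eBayes, R 4.3.3). Outlier spots (15 to 63 per array) were set missing and 1264 positive and 153 negative control spots removed. The code was tested on simulated data.

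Names came from RefSeq accessions (1752 probes, assembly GRCz12tu, which gave names only) and the study's probe tables (1407 more), from which no fold changes or p-values, the authors' own comparisons, were used. Genes with several probes were read from the brightest. The members and lists were chosen with earlier results of these data known. Genes named in the text are the members, called members of the lists, VEGF ligands and receptors, and the 5 probes with the highest r. Genes outside that rule (*cxcr4a*, *fgfr1a*, *nrarpa*, *notch1b*, *mef2ca*, *bmp4*, *slit3*, *stab2*, *fli1*, *mfap4.1*, *rag1* and *il7r*) were named after their values were seen. Differences between probes were tested by exact two-sided permutation. Alternatives covered the signal, background, offset, normalisation, spots, filter, variance model, array weights, a replicate block, each array left out, the threshold and the names.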

Additional observations from a re-analysis of the deposited data

How the results depend on the processing

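Each log2 change and difference kept its direction under all alternatives run, which reprocess the same arrays. For the dim *vegfaa* probe and *flt1*, both near background, a constant direction says little. Their adjusted p from limma reached 0.960 and 0.961. Differences between probes are the same by construction under every single factor per array on the background-corrected values. For *vegfab* the call was lost with scaling on the 75th percentile after normexp (2.44, adjusted p = 0.0490 from limma) and with no normalisation (2.29, 0.103), and leaving out each array gave 2.34 to 2.93. *vegfaa* (AF016244) passed with array weights (2.28, 0.00235) and at an adjusted p of 0.05 with no fold limit (2.05, 0.0152), and leaving out each array gave 1.82 to 2.53. The dim *vegfaa* probe (0.08 to 1.50) and *flt1* (0.07 to 1.28) were called under none of 18 alternatives each, and were not tested when only probes well above background were kept.

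Replicate numbers name pools, and samples with the same number did not deviate together (correlations of -0.01 and 0.02 for numbers 3 and 4). Only numbers 3 and 4 occur in both groups, so a replicate block takes up wild-type replicate 2 and *vhl* mutant replicate 1 whole. The change then rests on replicates 3 and 4 alone, without the mutant pool that was lowest for both ligands. With that block, *vegfab* gave 2.86 and *vegfaa* (AF016244) 2.66, and both passed the call (adjusted p = 0.00899 each from limma). For *vegfaa* this is no check independent of leaving out *vhl* mutant replicate 1. The block left 3 angiogenesis, 1 endothelial and 2 red blood cell calls, and 177 probes higher and 134 lower.

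Counts moved as follows. Called higher in the angiogenesis list were 0 genes with the 75th percentile after normexp and 0 with no normalisation, 8 with array weights, 12 at an adjusted p of 0.05, 2 with RefSeq names alone, 2 with spike-in scaling (and 1 lower) and 1 to 8 with an array left out. Endothelial calls were 0 with the processed signal, the 75th percentile, no normalisation and RefSeq names alone, 4 at 0.05, 1 with spike-in scaling and 0 to 2 with an array left out. Red blood cell calls were 0 with the 75th percentile and no normalisation, 2 with RefSeq names alone and 2 to 6 with an array left out. White blood cell calls were 1 with the processed signal and 1 at 0.05, the latter being *rag1*, which was lower in mutants (-0.25, adjusted p = 0.0333 from limma). Over all probes, 1935 were higher with the processed signal (687 lower), 9 with the 75th percentile (0 lower), 3 with no normalisation (0 lower), 4804 at 0.05 (5225 lower), 234 with spike-in scaling (3461 lower), and 194 to 1092 (185 to 1044 lower) with an array left out. Of the called probes 52% were higher as reported, 6.33% with spike-in scaling and 73.8% with the processed signal. Spike-in scaling was chosen after seeing the data. The median of all probes moved to 0.56 with no normalisation, 0.71 with the 75th percentile, 0.33 with the processed signal and -0.09 with spike-in scaling. The causes were not tested. Dim probes limit what can be read of *flt1*.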
